A study of Mus musculus with 36 samples.

Results

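The population labelled Other was compared with NB2, the library set with the highest level of neuroblast transcripts, over all genes whose log2 value was at least 0 in all 3 libraries of Other or in all 3 of NB2. This rule kept 15718 of the 19909 genes of the deposited table, in 6 of the 36 libraries of the series. Both populations were sorted by flow cytometry from homogenate of the subependymal zone of C57BL/6 mice aged 8 weeks, with no treatment that the labels tie to fresh tissue. They share strain, age, tissue and library kit and differ, as far as the labels say, only in the population name. Sources used here do not give the sorting gates, and the labels speak of biological replicates without naming animals or pools. The p-values below therefore measure spread between libraries. That spread was estimated within all 8 freshly sorted populations (28 libraries) together, not within these 6 libraries alone. Differences are Other minus NB2 on the log2 scale, so that 1 unit is a 2-fold difference in linear value, and a gene is called higher or lower when its limma adjusted p (Benjamini-Hochberg over the 15718 genes) is under 0.05.

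The subependymal zone lies beside the lateral ventricles of the adult mouse brain. Astrocyte-like stem cells there give rise to dividing progenitors and then to neuroblasts, most of them GABAergic, which travel along the rostral migratory stream to the olfactory bulb. A smaller set of progenitors in the dorsal wall makes glutamatergic cells, passing through a sequence of the transcription factors Pax6, Neurog2, Eomes and Tbr1. The stem cells sit against a dense plexus of capillaries, so that endothelium, pericytes, microglia, astrocytes, ependyma and oligodendrocyte lineage cells all surround the lineage and can enter a sort made from homogenate.

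Of the genes tested, 3497 were higher in Other (22.2%) and 3615 lower (23%), 45.2% in either direction, and these shares are the background for every count below. The median difference over all genes was -0.16. The 2 directions were unlike in size: 228 genes were over 32-fold higher in Other and 2 over 32-fold lower, while 2114 and 2125 were over 2-fold higher and lower. The 3 libraries of each group did not overlap in 4111 genes that were higher (26.2%) and 5187 that were lower (33%). Of the genes tested, 13545 passed the filter in both groups, 892 only in Other and 1281 only in NB2. A gene that passed only in the group where it is high had to differ, so counts of list members are descriptions, and for many lists the number that passed that way is given.

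Technical properties of the libraries moved with the comparison as follows. Other replicate 3 was the shallowest library, with 56 distinct low steps up to the median gene against 157 to 205 in the other 5, and 1836 genes at its floor (its lowest value, shared by many genes) against 989 to 1364. The Other libraries were also less alike (Pearson's r across genes 0.921 to 0.943) than the NB2 libraries (0.963 to 0.969). In addition, the difference fell with transcript length. Over 5 equal groups of genes by the length of the longest annotated transcript, from the shortest to the longest, the median difference was 0.33, 0.19, -0.21, -0.47 and -0.45. The share of genes called higher went from 36.7% in the shortest group to 11% in the longest, and the share called lower from 14.4% to 31.1%. All 3 Other libraries had this gradient, as the plot of differences by length shows. Long nuclear RNAs, a list kept as a sign of RNA quality, went with it: the mean over the 8 was 4.35, 4.36 and 4.31 in NB2 and 3.59, 3.01 and 3.26 in Other, with no overlap. Without overlap, 5 of the 8 lay lower in Other and 1 higher, against 33% and 26.2% of all genes, and 2 of the 8 had passed the filter only in NB2. Limma called 1 of them, Meg3, lower and 0 higher (2 and 0 at an unadjusted p under 0.05), with 4 lower with only the 6 libraries fitted or with values below 0 set to 0 and 6 with library weights. The 1 of 8 is a smaller share than the 23% of all genes called lower. The mean of this list also differed among populations, with 0.47 to 1.26 in NPC2, 1.90 to 2.34 in NB1 and 2.63 to 3.68 in qNSC. NB2 was the highest of the 8 populations, and Other lay within the range of qNSC. Whether the list shows RNA quality or cell type here was not tested. The part of length and RNA quality in the results was not tested, and list counts with the length trend removed stand beside the lists it touches.

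**Figure D1:**
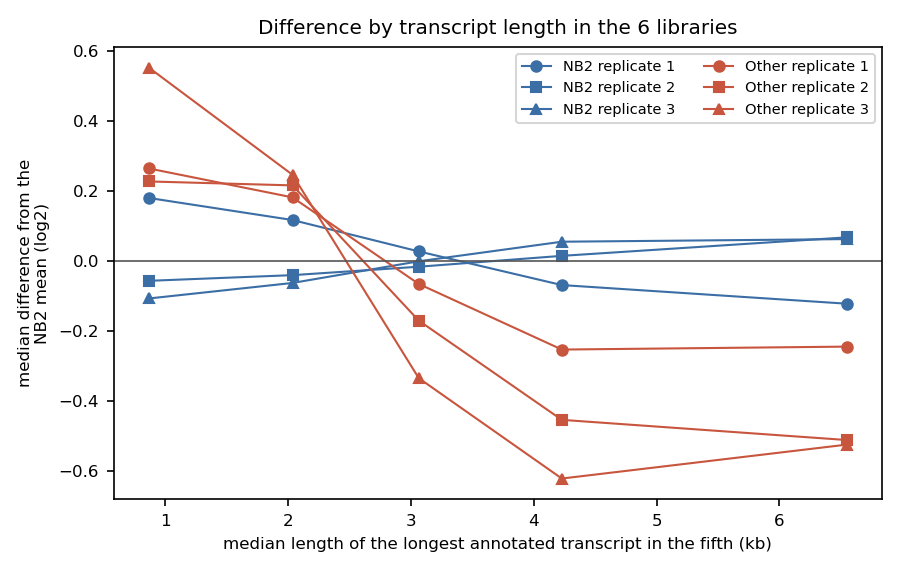
Median difference from the NB2 mean (log2, vertical axis) in each of 5 equal groups of the tested genes by transcript length (horizontal axis, kb), 1 line per library, NB2 in blue and Other in red. In the shortest group the Other libraries lie at 0.26, 0.23 and 0.55 and in the longest at -0.25, -0.51 and -0.53, while the NB2 libraries stay between -0.12 and 0.18.

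The largest differences of the whole table were gains in Other. The 12 genes with the largest positive difference and a mean of at least 4 in Other were Apod, Higd1b, Dcn, Mal, Ly6a, Ly6c1, Cldn5, Cavin2, Sox17, Wfdc1, Slc38a5 and Igf2. Apod, a secreted lipid carrier made by perivascular and myelinating cells (ENSMUSG00000022548, GRCm38 chromosome 16, 31296192 to 31314808), read -2.08, -4.56 and -2.78 in NB2 replicates 1 to 3 and 4.93, 6.72 and 7.25 in Other. The difference was 9.44 ± 1.18 (SE; adjusted p = 1.41e-06), with NB2 replicate 2 at its floor, so that the size depends on that floor. Wfdc1, a secreted protease inhibitor (ENSMUSG00000023336, chromosome 8, 119666365 to 119688222), had no floor library and read -0.75, -3.00 and -0.37 in NB2 and 5.49, 7.14 and 6.62 in Other, 222-fold higher (adjusted p = 3.03e-07). All 3 Other libraries were high for both genes and no library of the 2 groups overlapped. Cavin2 builds caveolae, Sox17 is an endothelial transcription factor and Slc38a5 a glutamine transporter of capillaries, with differences of 7.95, 7.84 and 7.74, each with NB2 replicate 2 at the floor.

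**Figure D2:**
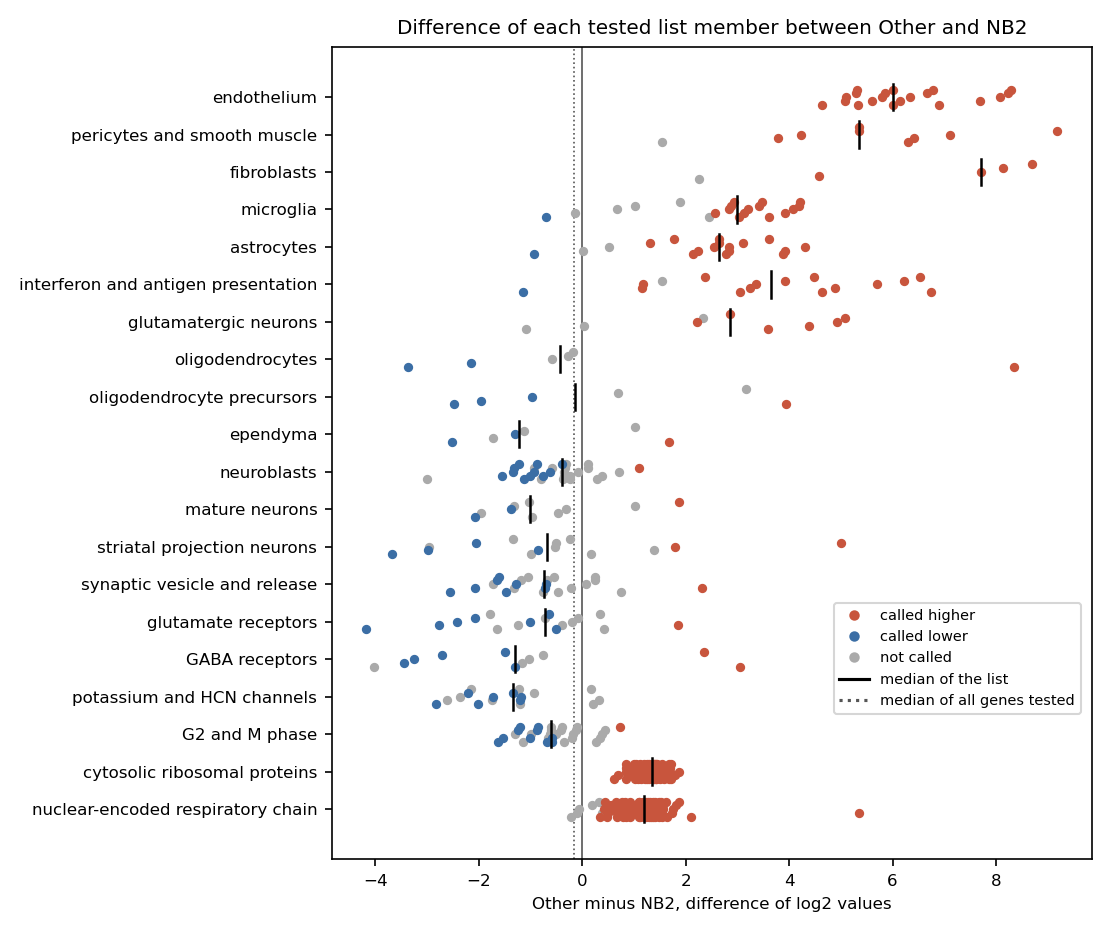
Other minus NB2 (log2, horizontal axis) for every tested member of 20 gene lists, coloured by call, with the list median as a black bar and the median of all genes tested (-0.16) as a dotted line. Vascular, microglial, astrocyte, interferon and glutamatergic lists lie to the right, synaptic, receptor and channel lists mostly to the left, and the 2 lists of short transcripts at the bottom mostly above 0, with medians of 1.36 and 1.19.

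Endothelial transcripts gave the most complete gain among the cell type lists. All 20 endothelial marker genes chosen were in the table and all 20 were called higher, 15 of which had passed the filter only in Other, with differences from 4.63 to 8.28 and a median of 6.02. The mean over the list was 0.12, -0.10 and 0.20 in NB2 replicates 1 to 3 and 5.52, 6.82 and 6.65 in Other, so Other replicate 1 held least and the NB2 libraries lay close together near 0. For 19 of the 20 the lowest Other library stood above all 25 other freshly sorted libraries. The same held for 30 of 79 cytosolic ribosomal protein genes and 22 of 97 nuclear-encoded respiratory chain genes found. A share over all genes is not given for this count.

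Among the tight junction and adhesion genes, Cldn5, the claudin that seals brain capillaries (ENSMUSG00000041378, chromosome 16, 18776847 to 18778262), read 1.35, -0.30 and 1.84 in NB2 and 8.06, 9.75 and 9.33 in Other. It was 271-fold higher, a difference of 8.08 ± 1.53 (adjusted p = 0.000181). The adhesion receptor Pecam1 read -0.75, 0.71 and -0.20 in NB2 and 4.05, 5.50 and 6.09 in Other, a difference of 5.29 ± 0.78 (1.05e-05). Vascular endothelial cadherin, Cdh5, was higher by 6.77 ± 1.24 (0.000127), with NB2 replicate 3 at its floor. The VEGF receptors followed: Flt1 read 0.95, -1.52 and 1.07 in NB2 and 7.13, 8.38 and 8.07 in Other (207-fold; adjusted p = 0.00015), and Kdr read -1.24, -1.25 and -2.78 and 4.47, 5.58 and 5.34 (119-fold; 0.000124). Neither gene had a library in the range of the other group.

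The transport genes of the blood-brain barrier were high as well. Slc2a1, the glucose transporter of capillaries that neurons and glia also make at lower levels, read 3.64, 3.52 and 3.49 in NB2 and 8.11, 9.28 and 8.56 in Other, 34.2-fold higher (adjusted p = 6.73e-14), and qNSC came close with 7.92 to 8.07. Mfsd2a, the lipid transporter that keeps barrier transcytosis low, was higher by 5.34 ± 0.55 (7.59e-08) and is the list member that other populations exceeded, with 7.22 to 7.65 in qNSC against 4.93 to 6.42 in Other. The organic anion transporter Slco1a4 was higher by 6.34 ± 1.59 (0.00237) and the efflux pump Abcb1a by 6.14 ± 1.43 (0.00124). Markers used to tell segments apart rose together: Vwf, made mainly in larger vessels and veins, was 48.6-fold and Emcn, of capillaries and veins, 64.7-fold higher (0.000796 and 0.000409). Ly6c1 and Ly6a, surface proteins of the Ly6 family in which near-identical copies make read assignment uncertain, were 299-fold and 312-fold higher (1.76e-05 and 0.000188). In bulk libraries, more cells of a type and more RNA per cell cannot be told apart.

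Genes of pericytes and smooth muscle were also gained. Of 13 listed, 9 were in the table, 7 of these having passed only in Other, and 8 were called higher with none lower, at a list median of 5.35. The list mean was -1.55, -0.30 and -1.61 in NB2 and 2.83, 5.45 and 4.69 in Other, again lowest in Other replicate 1. Vtn, the matrix protein vitronectin of pericytes, read 1.68, 2.52 and 1.28 in NB2 and 6.54, 10.69 and 9.55 in Other, a difference of 7.10 ± 1.66 (adjusted p = 0.00132), and its spread within Other, over 4 log2 units, followed the order of the list. Rgs5, a G protein regulator of pericytes, read -0.97, 0.28 and -1.23 and 4.23, 6.75 and 6.35 (6.41 ± 1.24; 0.000215). Higd1b was listed at the floor in all 3 NB2 libraries and read 1.82, 5.89 and 5.94 in Other, so no fold is given. The growth factor receptor Pdgfrb, which holds pericytes on capillaries, read -0.40, 0.37 and 0.21 and 1.95, 5.67 and 3.94 (3.79 ± 1.01; 0.00387). Of the contractile genes, smooth muscle actin Acta2 was higher by 6.30 ± 1.44 (0.00105) with NB2 replicate 1 at the floor, and smooth muscle myosin Myh11 by 4.24 ± 1.35 (0.013), a call that ended without NB2 replicate 3 (0.118). Tagln, at 1.03, 1.90 and 1.11 in NB2 and 2.50, 3.43 and 2.72 in Other, did not pass (0.144), but passed with library weights (0.00699), with only the 6 libraries fitted (0.0166) and with values below 0 set to 0 (0.004).

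Fibroblast genes gave a mixed picture. Dcn, decorin, a matrix proteoglycan of vascular and leptomeningeal fibroblasts, was listed at the floor in all 3 NB2 libraries and read 2.86, 5.28 and 4.04 in Other. The GABA and taurine transporter Slc6a13 read -4.56, -4.56 and -3.61 in NB2, 2 of these being floor values, and 2.73, 4.91 and 4.04 in Other (adjusted p = 1.24e-05), and the transcription factor Foxc1 was higher by 4.58 ± 1.17 (0.00259). The growth factor Igf2 read -4.56, 0.71 and -4.79 in NB2, with replicates 1 and 3 at the floor, and 3.05, 5.85 and 5.60 in Other (0.000227). The fibrillar collagens were low in both groups. Col3a1 read -4.56, -0.15 and -0.99 in NB2, with replicate 1 at the floor, and 0.23, 0.85 and 0.01 in Other, without overlap, and did not pass (0.198), and Col1a1 and Col1a2 were below the filter in both groups. Of the 7 members found, 5 were tested, all through Other only, and 4 were called higher, and with no filter 7 were tested and 5 called higher.

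**Figure D3:**
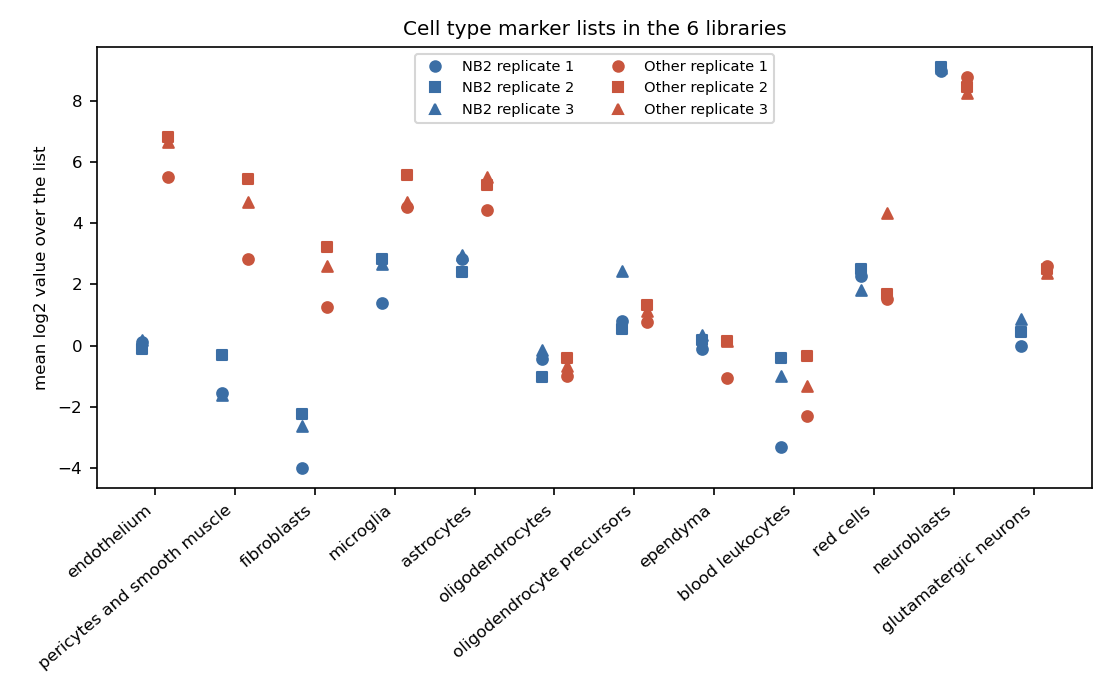
Mean log2 value over each cell type marker list (vertical axis) in the 3 NB2 libraries (blue) and the 3 Other libraries (red), with the symbol giving the replicate. The groups are apart for endothelium, mural cells, fibroblasts, microglia, astrocytes, neuroblasts and glutamatergic neurons and overlap for oligodendrocytes, their precursors, ependyma, leukocytes and red cells.

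Microglial genes were higher in part. Of 20 markers, all tested and 5 through Other only, 14 were called higher and 1 lower, with a median of 2.99 and list means of 1.404, 2.83 and 2.67 in NB2 and 4.52, 5.58 and 4.71 in Other. The purinergic receptor P2ry12, a defining gene of resting microglia, read 1.53, 2.09 and 3.09 in NB2 and 5.36, 6.21 and 5.55 in Other (3.47 ± 0.41; adjusted p = 6.94e-07). The complement genes C1qa, C1qb and C1qc, which encode the chains of C1q, were higher by 2.87, 3.92 and 4.07 (0.00344, 0.000159 and 0.00331). The lipid-sensing receptor Trem2 and its signalling adaptor Tyrobp were higher by 4.21 ± 0.93 and 3.62 ± 0.80 (0.000807 and 0.00077).

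Other microglial markers did not move with these. The fractalkine receptor Cx3cr1 read 7.41, 7.64 and 7.601 in NB2 and 7.42, 7.67 and 7.12 in Other (adjusted p = 0.496), and ran from 6.65 to 7.79 over all 28 freshly sorted libraries. Csf1r, the receptor on which microglia depend, read 3.59, 4.12 and 4.41 in NB2 and 4.87, 6.09 and 3.21 in Other and did not pass (0.392), but passed with library weights (0.000177). The transcription factor Sall1, which neural progenitors also make, was lower (-0.70 ± 0.21; 0.00827), a call that ended without NB2 replicate 3 (0.0604) and with the length trend removed (0.282). The list mean of Other overlapped that of pNSC (4.04 to 5.15), so Other was not set apart from all other populations by this list as it was by the endothelial one. For other immune cells the data gave little: of 8 border macrophage genes 3 were found and 1 tested (Stab1, 0.69, with an adjusted p of 0.0253 that rose above the threshold without NB2 replicate 2 (0.0512), NB2 replicate 3 (0.0762) or Other replicate 3 (0.191), and with only the 6 libraries fitted (0.101)), and both leukocyte genes found, the pan-leukocyte phosphatase Ptprc and the B cell receptor chain Cd79a, were too low to be tested.

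Astrocyte genes were higher in Other than in NB2 but below their level in the stem cell populations qNSC and pNSC. Of 19 markers 18 were tested, 2 through Other only, and 15 were called higher and 1 lower, with a median of 2.64. The list mean was 2.83, 2.40 and 2.97 in NB2, 4.42, 5.26 and 5.50 in Other, 9.67 to 9.81 in qNSC and 8.98 to 9.68 in pNSC, and that of aNSC, at 3.73 to 5.14, overlapped Other. Clu, a secreted apolipoprotein, read 5.05, 5.21 and 5.39 in NB2 and 8.72, 9.60 and 10.21 in Other (19.7-fold; adjusted p = 2.64e-07). The neurotensin receptor Ntsr2 read 2.95, 2.51 and 3.55 and 5.86, 6.91 and 7.85 (14.7-fold; 8.31e-08), and the gap junction gene Gja1 3.49, 3.10 and 4.19 and 6.23, 6.78 and 7.13 (8.68-fold; 2.48e-06). The glutamate transporters Slc1a3 and Slc1a2 were 4.39-fold and 4.7-fold higher (2.38e-07 and 1.68e-08). Gfap, the intermediate filament of reactive and stem astrocytes, read -2.83, -0.42 and -0.37 in NB2 and 2.63, 2.19 and 3.32 in Other (0.00105), against 6.71 to 7.18 in qNSC. The water channel Aqp4 of vessel-facing end feet was higher by 2.64 ± 0.72 (0.0047). The bicarbonate transporter Slc4a4 was lower (-0.93 ± 0.33; 0.0249); this call ended without NB2 replicate 2 (0.0807), NB2 replicate 3 (0.0642), Other replicate 2 (0.117) or Other replicate 3 (0.0848), and with the length trend removed (0.191). S100b and Atp1b2 did not pass (0.973 and 0.353).

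Genes shared between stem cells and vessels showed some of the largest gains; they were chosen after their values were seen. The BMP targets Id1 and Id3, inhibitors of bHLH factors, read 0.74, -3.00 and 0.87 and 0.55, 0.89 and 1.56 in NB2 and 6.03, 7.34 and 7.65 and 6.45, 8.20 and 8.35 in Other, differences of 7.47 ± 0.58 and 6.66 ± 0.66 (adjusted p = 8.76e-10 and 5.13e-08). The Notch target Hes1 read -1.61, -2.26 and -0.63 in NB2 and 3.78, 5.55 and 5.39 in Other (6.41 ± 0.81; 1.78e-06), and its relative Hes5, which neural stem cells use, was higher by 2.32 ± 0.36 (2.19e-05). Of 12 stem cell and activated progenitor genes 5 were called higher and 2 lower, with 3 higher without NB2 replicate 3, Other replicate 2 or Other replicate 3. Egfr read 3.74, 3.66 and 3.79 in NB2 and 3.41, 3.01 and 4.39 in Other and did not pass (0.665), but passed with library weights (0.000272) and without Other replicate 3 (0.0347). The growth regulator Mycn was lower (-0.91 ± 0.26; 0.00525).

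Oligodendrocyte, oligodendrocyte precursor and ependymal lists were not gained as a whole, and single members went both ways. Of 15 oligodendrocyte genes found 6 were tested; Mag, Mobp, Cldn11, Opalin, Aspa, Ugt8a, Gjc3, Sox10 and Bcas1 were too low. Mbp, the most abundant myelin transcript, read 4.43, 4.66 and 4.52 in NB2 and 4.26, 4.05 and 4.50 in Other and did not pass (adjusted p = 0.798). The myelin gene Mog was lower in Other (-3.36 ± 1.13; 0.0175), a call that ended without Other replicate 3 (0.0846). Mal, a raft proteolipid of myelin that other epithelia and endothelia also make, went the opposite way, with -2.83, -4.56 and -2.21 in NB2 (replicate 2 at the floor) and 4.202, 5.31 and 5.93 in Other (8.35 ± 1.24; 1.25e-05).

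Of 12 precursor genes 6 were tested, and the defining genes Pdgfra and Olig2 were too low. The proteoglycan Cspg4, which pericytes share with these precursors, read -4.56, 1.00 and 0.36 in NB2 and 1.28, 4.34 and 3.01 in Other (adjusted p = 0.0157), and its call ended without NB2 replicate 1 (0.156) or Other replicate 2 (0.0806). The AMPA receptor auxiliary subunit Cacng4 and the cadherin Pcdh15, which neuroblasts also express here, were lower (-1.96 ± 0.39 and -2.49 ± 0.56; 0.0003 and 0.000961). Of 14 ependymal genes 6 were tested, and the ciliary master regulator Foxj1 with Ccdc153, Tmem212, Rsph1 and others was too low. Spag17, of motile cilia, was lower (-1.30 ± 0.30; 0.00104) and the chemoattractant Rarres2 higher by 1.67 ± 0.34 (0.000399). All 4 choroid plexus genes found, with transthyretin (Ttr) among them, were too low to be tested. The haemoglobin gene Hbb-bs read 4.85, 4.92 and 3.96 in NB2 and 4.42, 5.20 and 7.67 in Other, so Other replicate 3 stood apart, and limma called 0 of the 5 red cell genes tested (0 at an unadjusted p under 0.05).

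**Figure D4:**
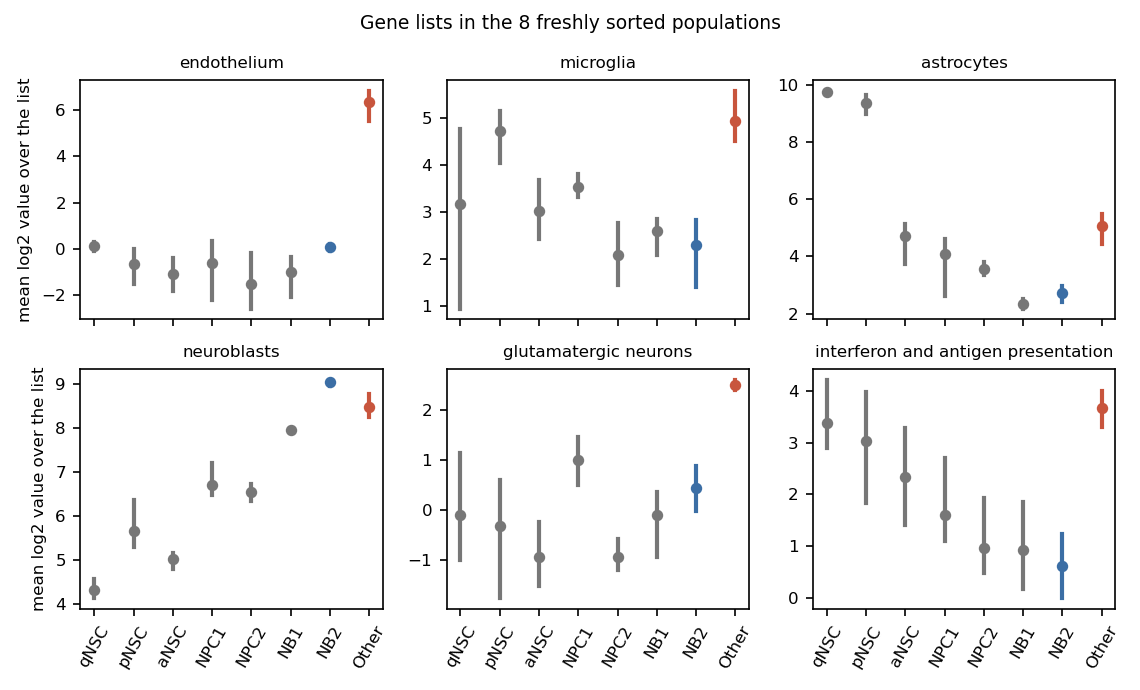
Mean log2 value over 6 gene lists (vertical axis) in the 8 freshly sorted populations (3 or 4 libraries each), with the point at the mean and the bar from the lowest to the highest library. Other is highest and separate for endothelium and glutamatergic neurons, second to NB2 for neuroblasts, and overlaps stem cell populations for microglia and for interferon and antigen presentation.

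Interferon response and antigen presentation genes formed another gained group. Of 20 listed, 19 were found and 16 tested, 9 of these through Other only, and 14 were called higher and 1 lower, with a median of 3.64. List means were 0.60, 0.00 and 1.23 in NB2 and 3.31, 3.99 and 3.74 in Other, overlapping the qNSC range of 2.90 to 4.21. Endothelium and microglia also express these genes; their part in the difference was not tested. The class I heavy chain genes H2-K1 and H2-D1, near-identical members of the major histocompatibility complex whose reads may be split between copies, were 24.8-fold and 5.18-fold higher (adjusted p = 1.08e-09 and 1.09e-07). Their light chain B2m read 3.73, 3.53 and 3.18 in NB2 and 7.21, 8.39 and 8.28 in Other (22.3-fold; 3.7e-10). The immunoproteasome genes Psmb8 and Psmb9 were higher by 6.23 ± 1.12 and 5.69 ± 0.83 (0.000109 and 9.09e-06), each with NB2 replicate 2 at the floor, and the antiviral membrane gene Ifitm3 read -0.40, 0.66 and 0.76 in NB2 and 5.63, 7.56 and 7.41 in Other (92.1-fold; 1.31e-06).

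The interferon-induced genes of the list could be set beside their promoters. The classical interferon-stimulated response element holds 2 GAAA blocks, searched here as GAAA, any 2 bases and GAAA again on both strands in the 250 bases before the RefSeq start (GRCm38.p6); overlapping matches were merged in the display. It was found in 6 of the 15 list members with a promoter entry (40%) and in 936 of 27025 genes (3.46%). Those 6 were B2m, Ifit1, Ifit3, Stat2, Isg15 and Bst2, and none of 15 endothelial genes had it. The interferon gamma activated motif TTCNNGGAA was found in 2 of the 15 (Bst2 and Psmb8; 13.3%) and in 4.74% of all genes. A match is a description of the letters and not evidence of binding. The list was written as interferon response and antigen presentation genes, so these shares describe the list and not the difference between Other and NB2. The 250 bases of 4 of these genes are shown because they differ in transcript gain while sharing the motif; capitals mark the matches, and each sequence runs 5′ to 3′ on the gene's strand up to the base before the start.
Ifit1, chr19:34640639-34640888, plus strand: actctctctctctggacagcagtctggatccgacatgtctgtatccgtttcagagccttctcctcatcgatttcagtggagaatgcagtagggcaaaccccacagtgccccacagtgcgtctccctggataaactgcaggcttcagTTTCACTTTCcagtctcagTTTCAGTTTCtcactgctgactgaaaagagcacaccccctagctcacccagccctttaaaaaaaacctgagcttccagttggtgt
Ifit3, chr19:34583279-34583528, plus strand: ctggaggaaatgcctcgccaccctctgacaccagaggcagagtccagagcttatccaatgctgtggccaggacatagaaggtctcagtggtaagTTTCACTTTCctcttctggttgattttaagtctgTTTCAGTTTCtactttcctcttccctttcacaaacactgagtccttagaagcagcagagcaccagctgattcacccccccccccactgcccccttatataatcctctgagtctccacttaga
Isg15, chr4:156200819-156201068, minus strand: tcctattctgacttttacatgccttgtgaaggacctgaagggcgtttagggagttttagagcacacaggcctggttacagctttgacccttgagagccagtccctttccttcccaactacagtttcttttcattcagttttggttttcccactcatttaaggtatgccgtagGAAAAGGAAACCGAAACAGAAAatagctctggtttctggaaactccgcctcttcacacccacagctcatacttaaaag
Bst2, chr8:71537473-71537722, minus strand: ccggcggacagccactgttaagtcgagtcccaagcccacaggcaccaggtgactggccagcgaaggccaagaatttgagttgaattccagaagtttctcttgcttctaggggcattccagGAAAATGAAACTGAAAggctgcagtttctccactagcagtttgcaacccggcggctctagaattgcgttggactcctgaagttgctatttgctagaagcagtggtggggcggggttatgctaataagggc

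Ifit1, which binds foreign 5′ ends of RNA, read -4.56, -4.56 and -1.23 in NB2, with replicates 1 and 2 at the floor, and 2.69, 3.59 and 3.57 in Other (adjusted p = 0.00414). Ifit3, its partner, read -0.75, -1.52 and 0.44 in NB2 and 1.69, 3.50 and 2.72 in Other (3.25 ± 1.07; 0.0159), a call that ended without NB2 replicate 2 (0.0725) or Other replicate 2 (0.0671). Bst2, a tether of budding virions, read -1.24, -0.69 and 0.21 and 3.20, 4.78 and 4.93 (4.88 ± 0.96; 0.000269). The ubiquitin-like Isg15 read -1.24, 0.11 and -0.99 and 2.24, 3.26 and 2.47 (3.37 ± 1.36; 0.0463), a call that ended without any 1 of the 6 libraries, at 0.0586 to 0.121, and with no filter (0.0537), with no trend and no robust setting (0.0553) and with the length trend removed (0.0868). Stat2, which holds the same motif and carries the interferon signal to the nucleus, went against the group, with 4.06, 4.46 and 4.27 in NB2 and 3.09, 3.38 and 2.92 in Other (-1.14 ± 0.28; 0.00173). In all 4 genes shown the Other libraries lay above the NB2 libraries, and in Stat2 below them.

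Neuroblast genes remained abundant in Other, with the list mean at 8.97, 9.10 and 9.06 in NB2 and 8.78, 8.44 and 8.25 in Other, above the 7.88 to 8.00 of NB1. Of 29 genes, all passing the filter in both groups, 11 were called lower and 1 higher, with a median of -0.40 against -0.16 for all genes and -0.47 for genes of the same length group as the list median. In that length group 34.8% of genes were called lower and 14.1% higher, so the count of lower genes is near its share. The general neuronal genes of this list did not pass: the tubulin Tubb3 read 11.07, 10.69 and 10.78 in NB2 and 11.10, 11.03 and 10.72 in Other (adjusted p = 0.792), the microtubule regulator Stmn2 read 10.33, 9.95 and 9.69 and 10.41, 10.10 and 10.31 (0.626), and Cd24a, an antigen commonly used for sorting, 10.36, 10.13 and 9.998 and 10.23, 9.88 and 9.68 (0.627). In each of the 3 the groups overlapped.

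Genes of GABAergic identity and of migration were among the 11 called lower, while 17 of the 29 were not called. The homeobox gene Dlx1 read 10.45, 10.72 and 10.998 in NB2 and 9.82, 9.58 and 9.13 in Other (-1.21 ± 0.29; adjusted p = 0.00166), and the zinc finger gene Sp9, which acts with it in interneuron production, was lower (-1.32 ± 0.38; 0.00726). The guidance receptor Robo2, which keeps neuroblasts in their stream, read 7.94, 8.44 and 8.66 and 7.45, 6.58 and 6.39 (-1.54 ± 0.40; 0.00327), and St8sia2, which adds polysialic acid to the adhesion molecule Ncam1, was lower (-1.33 ± 0.40; 0.00902), a call that ended with the length trend removed (0.062). The calls of Dcx (-0.93 ± 0.37; 0.0422), the microtubule protein of migrating neurons, and of the GABA enzyme gene Gad1 (-1.12 ± 0.40; 0.0238) ended without NB2 replicate 2 or 3 or Other replicate 2 or 3, at 0.0927, 0.126, 0.105 and 0.205 for Dcx and 0.0671, 0.0604, 0.0603 and 0.112 for Gad1. Dcx also lost its call with no trend and no robust setting (0.0571) and with the length trend removed (0.155), and Gad1 with the length trend removed (0.0924). The second GABA enzyme Gad2 did not pass (0.588). Prokr2, a chemoattractant receptor, had the largest mean difference of the list, from 7.79, 7.92 and 8.12 to 5.46, 4.93 and 4.42, and did not pass (-3.00 ± 1.36; 0.0733), but passed with library weights (0.0134), with only the 6 libraries fitted (6.64e-05) and with values below 0 set to 0 (9.22e-06). The count of 11 became 7 without any 1 of NB2 replicates 2 and 3 and Other replicates 2 and 3. With the length trend removed it was 5 of 29, beside 2613 lower genes among all 15718. Pax6, which stands early in both the dopaminergic and the glutamatergic sequence, was the single higher gene, at 5.99, 6.16 and 5.80 in NB2 and 6.85, 7.28 and 7.10 in Other (2.13-fold; 3.62e-06).

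**Figure D5:**
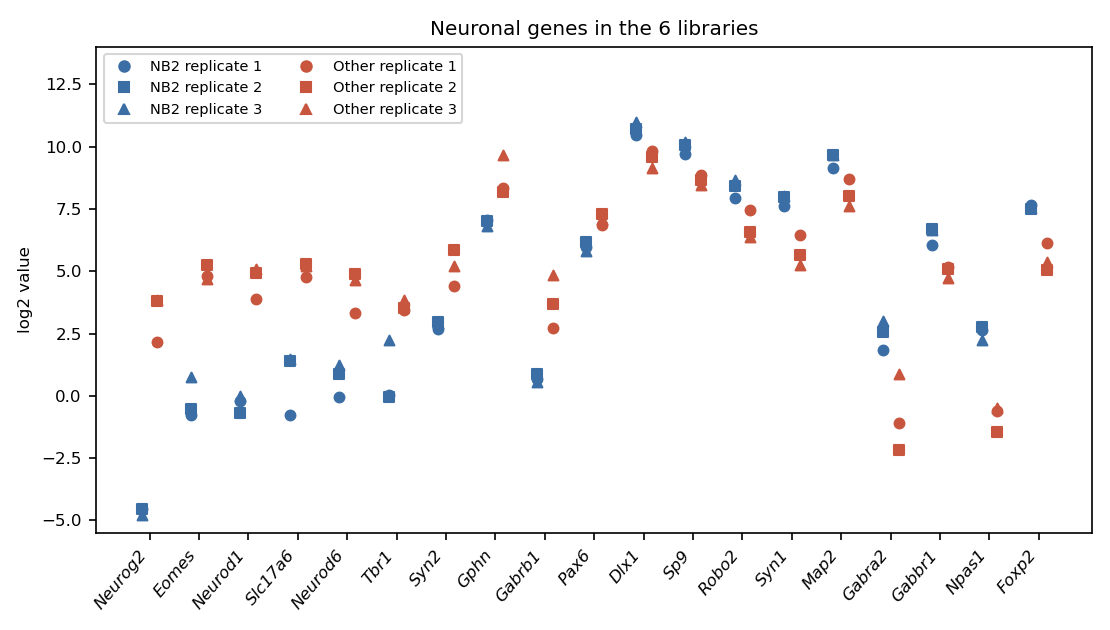
Log2 value (vertical axis) of 19 neuronal genes in the 3 NB2 libraries (blue) and the 3 Other libraries (red). The groups do not overlap in any of the 19: the first 10 genes, Neurog2 to Pax6, are higher in Other and the other 9 lower. The 19 are a choice among the named genes, and genes that overlap, such as Tubb3, Stmn2 and Cd24a, are not shown. Over all genes tested, 26.2% were higher and 33% lower without overlap. Syn2 and Gabrb1 are also high in qNSC.

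Among the neuronal lists, only that of glutamatergic neurons had most of its tested members called higher. Of 11 listed, 9 were tested, 7 through Other only, and limma called 6 higher and 0 lower (7 and 1 at an unadjusted p under 0.05), with a median of 2.86 (over all 11 without a filter, 2.34). List means were -0.02, 0.45 and 0.88 in NB2 and 2.59, 2.50 and 2.38 in Other, and all other populations stayed at or under 1.45. Neurog2, the proneural gene of cortical glutamatergic progenitors (not on the list and chosen after its values were seen), was listed at the floor in all 3 NB2 libraries and read 2.17, 3.83 and 3.84 in Other. Eomes, which marks intermediate progenitors, read -0.75, -0.53 and 0.76 in NB2 and 4.82, 5.24 and 4.67 in Other (34-fold, 5.09 ± 1.11; adjusted p = 0.0007). Neurod1, which drives their differentiation, read -0.19, -0.69 and 0.01 and 3.89, 4.94 and 5.09 (30.5-fold, 4.93 ± 1.04; 0.00048). Slc17a6, the vesicular glutamate transporter of young glutamatergic cells, read -0.75, 1.38 and 1.47 and 4.76, 5.29 and 5.21 (20.9-fold; 0.00922). No library of either group reached the range of the other in these 4 genes.

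Later genes of the same sequence were higher too, with calls that rested on single libraries. Neurod6 read -0.06, 0.89 and 1.25 in NB2 and 3.32, 4.89 and 4.66 in Other (adjusted p = 0.0213), with the call ending without NB2 replicate 1 (0.0696), Other replicate 2 (0.0699) or Other replicate 3 (0.0704). The deep-layer factor Tbr1 read 0.05, -0.06 and 2.25 and 3.45, 3.51 and 3.86 (0.0298), with the call ending without NB2 replicate 1 (0.0934), NB2 replicate 2 (0.111), Other replicate 2 (0.0599) or Other replicate 3 (0.0861). Fezf2, which stem cells also carry (5.61 to 5.74 in qNSC), was higher by 2.23 ± 0.53 (0.00146), and Neurod2 did not pass (0.0922), but passed with library weights (0.00191), with only the 6 libraries fitted (0.0279) and with values below 0 set to 0 (3.13e-05). Slc17a7, the vesicular glutamate transporter of mature cortical neurons, was too low to be tested, and Cux2 and Rorb, of upper layers, did not pass (0.0785 and 0.84), though Cux2 passed with library weights (6.37e-05) and with only the 6 libraries fitted (0.0251). In the NPC1 population Eomes lay at 3.18 to 3.73 and Neurog2 at 1.12 to 1.41, below Other in both.

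Markers of mature and striatal neurons were not gained as groups. Rbfox3, the nuclear antigen NeuN, read 2.88, 2.79 and 2.91 in NB2 and 3.51, 3.84 and 4.28 in Other and did not pass (adjusted p = 0.132), as did Snap25 (0.539) and Syt1 (0.441). Rbfox3 passed with library weights (0.000416), with only the 6 libraries fitted (0.022) and with values below 0 set to 0 (0.0382), and Syt1 with only the 6 libraries fitted (0.00213). Map2, of dendrites, and Syn1, of synaptic vesicles, were lower (-1.38 ± 0.26 and -2.08 ± 0.27; 0.000145 and 2.67e-06), while the surface protein Thy1 was higher by 1.86 ± 0.47 (0.00247), a call that ended with only the 6 libraries fitted (0.051). Of 17 striatal projection neuron genes found, 14 were tested, 4 through NB2 only and 2 through Other only. Limma called 2 higher and 4 lower (1 and 2 without Other replicate 3, and 1 higher without Other replicate 2). The forkhead factor Foxp2 read 7.65, 7.48 and 7.56 in NB2 and 6.12, 5.06 and 5.37 in Other (-2.05 ± 0.41; 0.000337). The dopamine receptor Drd2 was lower (-3.68 ± 1.18; 0.0131), ending without Other replicate 2 (0.119), and Arpp21 (-2.98 ± 0.89; 0.0088), ending without Other replicate 3 (0.0567). The 2 higher genes were Ebf1, which pericytes and B cells also use (-0.97, 0.02 and -0.20 in NB2 and 3.19, 5.65 and 5.00 in Other; 0.000985), and the phosphatase inhibitor Ppp1r1b (1.80 ± 0.59; 0.0147), whose call ended without Other replicate 2 (0.0647) or Other replicate 3 (0.0985). Of 10 interneuron and cholinergic genes found 6 were tested, 2 through NB2 only. Npas1, a repressor in interneurons, was lower, at 2.65, 2.74 and 2.25 in NB2 and -0.62, -1.44 and -0.50 in Other (0.00212). Npy (2.91 ± 1.25; 0.0596) and the calcium-binding protein gene Calb2 (1.31 ± 0.76; 0.164) did not pass. Npy passed with library weights (0.00955), with only the 6 libraries fitted (0.00067), with the replicate block (0.0309) and with values below 0 set to 0 (5.12e-07), and Calb2 with library weights (0.011), with only the 6 libraries fitted (0.0126) and with values below 0 set to 0 (0.0109).

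Synaptic, receptor and channel lists had medians below that of all genes (-0.16), and they consist of long transcripts, whose median difference over all genes in their length groups was -0.45 to -0.47, with 31.1% to 34.8% called lower. Of 23 synaptic vesicle and release genes, 22 tested and 1 of these through NB2 only, 8 were lower and 1 higher, at a median of -0.74. The vesicle protein Sv2a read 4.47, 5.42 and 5.28 in NB2 and 3.74, 3.06 and 0.74 in Other (-2.55 ± 0.60; adjusted p = 0.00136), and the active zone protein Pclo was lower (-1.46 ± 0.26; 7.93e-05). Syn2 went against them, at 2.66, 2.96 and 2.91 in NB2 and 4.43, 5.84 and 5.20 in Other (4.96-fold; 8.85e-07), and was highest in qNSC (8.36 to 8.57). Of 17 postsynaptic scaffold genes, 16 were tested, 1 through NB2 only. Of the 16, 5 were lower, a share like that of their length group, and 1 higher. The count of lower genes ranged from 1 to 4 without 1 library (3 without NB2 replicate 1, 2 without NB2 replicate 2 or Other replicate 2, 1 without Other replicate 3) and was 9 with library weights and 0 with the length trend removed. The higher gene was the inhibitory scaffold Gphn, at 7.05, 7.04 and 6.83 in NB2 and 8.34, 8.18 and 9.68 in Other (3.39-fold; 2.03e-06).

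Of 13 GABA receptor genes found, 11 were tested, 3 through NB2 only and 1 through Other only. Limma called 5 lower and 2 higher at a median of -1.29, with 3 lower without NB2 replicate 3, 4 with the length trend removed and 8 with only the 6 libraries fitted. The channel subunit Gabra2 read 1.83, 2.55 and 2.99 in NB2 and -1.08, -2.17 and 0.88 in Other (-3.25 ± 0.61; adjusted p = 0.000155), and the metabotropic subunit Gabbr1 6.06, 6.71 and 6.67 and 5.16, 5.07 and 4.73 (-1.49 ± 0.27; 9.57e-05). The subunits Gabrb1 and Gabrg1, which astrocytes and stem cells carry (8.56 to 8.81 and 8.65 to 8.86 in qNSC), were higher, by 3.05 ± 0.55 and 2.36 ± 0.62 (9.99e-05 and 0.00325). Glutamate receptor genes divided in the same way: of 23, 17 tested and 3 of these through NB2 only, 7 were lower and the glial metabotropic receptor Grm3, at 9.51 to 9.63 in qNSC, was higher (1.85 ± 0.45; 0.00192). The count of 7 fell to 3 without NB2 replicate 2, Other replicate 2 or Other replicate 3, to 4 without NB2 replicate 3, and to 3 with the length trend removed.

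Among ion channels, limma called 3 of 18 sodium and calcium channel genes tested (22 found) and 7 of 17 potassium and HCN channel genes tested (21 found) lower and 0 of either list higher (8, 9 and 0 at an unadjusted p under 0.05). The 3 of 18 is a smaller share than the 23% of all genes and the 31.1% of that length group. The medians were -1.27 and -1.34, against -0.45 for that length group. Other was lower without overlap in 13 of the 18 and 12 of the 17, against 33% of all genes. It was higher without overlap in 0 and 1, against 26.2% of all genes. Of the 18 and the 17, 3 and 7 passed the filter only in NB2, which favours a lower value in Other. No share without overlap is given for the length group. The calcium channel subunits Cacnb1 and Cacnb3 were lower (-1.73 ± 0.32 and -1.74 ± 0.41; adjusted p = 0.000145 and 0.00149), and the sodium channel Scn8a (-1.15 ± 0.27; 0.00127). With only the 6 libraries fitted, 11 genes of each list were lower, and the sodium and calcium channel count was also 11 with library weights and 9 with values below 0 set to 0. The potassium count was 3 without Other replicate 2 and 5 with the length trend removed.

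Counts of guidance and regional genes are read against the 22.2% and 23% of all genes called higher and lower. Both lists have a median transcript length in the longest of the 5 length groups. There 11% of genes were called higher and 31.1% lower. Of 38 axon guidance and migration genes found, 35 were tested, 12 being lower and 3 higher (1 higher without Other replicate 3 and 5 with the length trend removed). The count of lower genes is near the share of that length group, and the list median was -0.30 against its -0.45. Lower were the semaphorin receptor Plxna3, at 5.82, 6.82 and 7.33 in NB2 and 4.74, 4.65 and 4.63 in Other (-1.98 ± 0.42; adjusted p = 0.000553), and the repellent Slit1 (-1.66 ± 0.42; 0.00239). Higher was Nrp1, a receptor for both semaphorins and VEGF that endothelium uses, at 2.45, 3.30 and 2.04 in NB2 and 4.86, 5.64 and 4.73 in Other (5.57-fold; 1.54e-05). Efna5 (0.71; 0.0126) ended without NB2 replicate 3 (0.0675) or Other replicate 3 (0.083), and with only the 6 libraries fitted (0.0526), and Unc5a (1.81; 0.0318) ended without NB2 replicate 1 (0.139), NB2 replicate 2 (0.131), Other replicate 2 (0.0805) or Other replicate 3 (0.109), and with only the 6 libraries fitted (0.0656) and with values below 0 set to 0 (0.0723). Of 32 transcription factors of region and neuron subtype found, 29 were tested, with 7 higher (4 without NB2 replicate 2) and 6 lower, close to the shares over all genes. Against the shares of the longest length group, more were higher and fewer lower, and the list median was -0.14 against -0.45. Lower were Foxp4 (-2.26 ± 0.46; 0.000355) and the olfactory bulb factor Tshz1, at 7.68, 7.79 and 7.14 in NB2 and 6.18, 5.63 and 5.57 in Other (-1.74 ± 0.24; 4.23e-06). Higher besides Ebf1, Tbr1 and Pax6 were Sox5 and Sox6 (0.61 and 0.81; 0.00762 and 0.00187).

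The largest losses were smaller than the gains and did not come from 1 family. Among the 12 lower genes with the largest difference were Asic1, Iqgap3, Bach2os, Slitrk3, Aatk, Capn5, Prr18, Arhgap33, Kif26a, Sema4c and Gng4, from -3.89 to -2.83. Bach2os, an antisense transcript (ENSMUSG00000086150, chromosome 4, 32559680 to 32571708) whose reads cannot be told from those of its partner without strand, read 3.92, 4.15 and 3.99 in NB2 and 0.47, 1.06 and 0.22 in Other (-3.44 ± 0.32; adjusted p = 1.31e-08). Sema4c, a transmembrane semaphorin, read 4.92, 6.02 and 6.30 and 3.19, 2.46 and 3.10 (-2.83 ± 0.56; 0.000258), and Gng4, a G protein subunit, 5.57, 5.32 and 5.77 and 3.22, 2.39 and 2.57 (-2.83 ± 0.68; 0.00153). The calls of the acid-sensing channel Asic1, the synapse organiser Slitrk3, Capn5 and Kif26a ended without Other replicate 3, at 0.177, 0.0639, 0.15 and 0.0548, and that of Capn5 also with only the 6 libraries fitted (0.0662). The imprinted long RNA Meg3 was also lower, at 6.47, 6.83 and 6.998 in NB2 and 4.19, 4.35 and 4.76 in Other (-2.33 ± 0.47; 0.000307).

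At the limit of detection, 17 genes were at the floor in all 3 NB2 libraries and at 0 or above in all 3 Other libraries. They were Dusp14, Dcn, Higd1b, Clic5, Procr, Neurog2, Arhgap6, Gm45753, Parp14, Scarf1, Tnfsf10, Fmo2, Sh3tc2, Sox7, Ctla2b, Gbp4 and Gm49392. At 2 or above in all Other libraries 4 remained: Dcn, Neurog2, the endothelial transcription factor Sox7 (2.50, 3.88 and 3.89) and the endothelial scavenger receptor Scarf1 (2.68, 3.77 and 2.41). The reverse held for 2 genes at 0 or above, Cldn23 and Gm12147, and for none at 2 or above. Other replicate 3, with the highest floor, limits how low a value can be seen in it.

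The S phase and the G2 and M phase lists moved in opposite directions, with median differences of 0.34 and -0.60. Both groups lay far below the dividing populations. S phase genes averaged 5.52, 5.50 and 5.48 in NB2 and 5.79, 5.81 and 5.75 in Other, against 7.604 to 7.72 in NB1, with 4 of 31 higher and 1 lower. Without overlap, 14 of the 31 lay higher and 3 lower, against 26.2% and 33% of all genes. The replication protein Rpa2 was higher by 1.04 ± 0.20 (adjusted p = 0.00016) and the histone mRNA binder Slbp by 0.70 ± 0.17 (0.00152), and the higher count was 2 without NB2 replicate 3 or Other replicate 3, 11 with only the 6 libraries fitted and 18 with library weights. G2 and M phase genes averaged 5.61, 5.59 and 5.57 in NB2 and 5.16, 5.08 and 4.91 in Other, with 10 of 30 lower and 1 higher. In the length group of this list's median, 34.8% of all genes were called lower. Without overlap, 17 of the 30 lay lower and 1 higher, against 33% and 26.2% of all genes. That count of 10 was 6 without NB2 replicate 2 or 3 or Other replicate 2, 3 without Other replicate 3 and 5 with the length trend removed. Mki67, transcribed in cycling cells, read 5.79, 5.96 and 5.90 in NB2 and 5.04, 4.597 and 4.98 in Other (-1.01 ± 0.37; 0.0305), a call that ended without NB2 replicate 2 (0.0789), NB2 replicate 3 (0.0715), Other replicate 2 (0.106) or Other replicate 3 (0.06), and with the length trend removed (0.11).

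Genes of the immediate early response and of dissociation stress rose in 12 of 26 found (23 tested, 1 through Other only) and fell in 2, with a median of 1.11. The 5 largest differences were those of Ier3, Klf4, Klf2 and a pair of heat shock genes. The flow-responsive factor Klf2 read 1.71, 1.65 and 2.78 in NB2 and 6.32, 7.05 and 6.90 in Other (26.2-fold; adjusted p = 1.62e-08), Klf4 was higher by 4.92 ± 0.93 (0.000175), and the heat shock genes Hspa1a and Hspa1b, near-identical copies, by 4.37 ± 0.65 and 4.27 ± 0.50 (1.33e-05 and 5.97e-07). Fos, induced within minutes by activity or handling, read 9.85, 9.36 and 9.34 and 9.80, 10.61 and 10.18 and did not pass (0.261), but passed with library weights (0.00137) and with only the 6 libraries fitted (0.0434). Egr3 was lower (-2.09 ± 0.71; 0.019), ending without NB2 replicate 3 (0.0602) or Other replicate 3 (0.108), and Jund (-0.76 ± 0.27; 0.0231), ending without NB2 replicate 3 (0.0874) or Other replicate 3 (0.101).

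Genes of protein synthesis and respiration were higher in nearly all members tested. Of 79 cytosolic ribosomal protein genes found 78 were tested and all 78 of these were higher, with a median of 1.36 and list means of 6.38, 5.97 and 5.60 in NB2 and 6.99, 7.12 and 7.81 in Other. Of 97 nuclear-encoded respiratory chain genes found, a set that holds assembly factors and the pericyte gene Ndufa4l2, 92 were tested and 85 were higher with none lower, at a median of 1.19 and list means of 5.98, 5.62 and 5.49 and 6.51, 6.77 and 7.23. Both lists consist of short transcripts, whose length group had a median of 0.33, and Other replicate 3, the library with the steepest length gradient, had the highest mean in both. With the length trend removed 77 and 79 members were higher, with medians of 1.05 and 0.92. The mitochondrially encoded transcripts, 8 tested of 11, had 0 calls in limma (1 at an unadjusted p under 0.05) and a median of 0.31, with 3 higher without NB2 replicate 1.

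Glycolysis genes were higher in 13 of 20 and lower in 3, with a median of 0.75. Besides Slc2a1, the higher members included the astrocyte aldolase Aldoc (3.62 ± 0.49; adjusted p = 3.99e-06) and the inducible hexokinase Hk2, at -1.24, -1.52 and -2.21 in NB2 and 0.38, 1.196 and 2.77 in Other (0.000206). Of 18 cholesterol synthesis genes 7 were higher and 3 lower, with 6 lower without Other replicate 1, 1 lower without Other replicate 3 and 1 lower with the length trend removed. Of the surface antigens commonly used for sorting, 7 of 8 tested, 4 were higher, and the part of the sort, whose gates are not given, in these values was not tested. The tetraspanin Cd9 read 6.52, 6.49 and 6.23 in NB2 and 7.55, 7.72 and 8.08 in Other (2.58-fold; 1.01e-07), Prom1 4.596, 4.44 and 4.80 and 5.91, 6.44 and 5.89 (2.76-fold; 1.37e-05), and Ncam1, the carrier of polysialic acid, was lower (-0.75 ± 0.19; 0.0021), a difference that became -0.34 and lost its call with the length trend removed (0.112). The X-inactivation transcript Xist and Y-linked Ddx3y were both above 3 in all 6 libraries, and Xist did not pass (0.342).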

How the data were processed

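Per the labels' protocols, poly(A) RNA of sorted cells was amplified (SMARTer Ultra Low), indexed (Nextera XT) and sequenced on an Illumina NextSeq. The submitters' processing notes list HISAT2 and featureCounts, with FastQC, Trimmomatic, cutadapt and limma, and builds mm10 and GRCm38. Versions, annotation and gates: not given in the sources used here. For 19909 genes the authors deposited log2 values in 1 table. Its scale, judged from the values, resembles log2 CPM after quantile normalization across libraries, which hides differences in RNA content of cells. Total reads are not given, and depth was judged from the steps of low values. The table held 1770 blank lines and 23 symbols turned into dates, so genes were followed by Ensembl identifier, with 19863 matched to GENCODE M21, the source of coordinates and transcript lengths.

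One mean per population was fitted to the 28 freshly sorted libraries with limma 3.58.1 (R 4.3.3), using a trended, robust empirical Bayes step, and Other minus NB2 was the contrast. The labels gave the groups and replicate numbers. Same-numbered libraries did not deviate together, so they were not paired. The fit was tested on simulated data. Named genes were the 12 largest called differences each way (no overlap, higher group's mean at least 4, ordinary symbol), the first, most significant and most extreme members of 39 lists and members that went against their list; Id1, Id3, Hes1, Neurog2 and the floor genes were chosen after their values were seen. Some genes are not reported here. The lists and the comparison were chosen with earlier results of these data known. The alternatives were 15 planned refits and 1, removal of the transcript length trend, added after seeing the data.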

Additional observations from a re-analysis of the deposited data

How the results depend on the processing

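Under the 16 alternatives, the counts of higher and lower genes were 3497 and 3615 as reported, 2194 and 2323 over genes of mean 4 or more, which tests fewer genes, and 4950 and 6188 with library weights. Leaving out 1 library gave 2745 to 3638 higher and 2313 to 4041 lower, the lowest of both without Other replicate 3. Removing the length trend gave 3687 and 2613, which raised the share of higher calls from 49.2% to 58.5% and shifted the all-gene median (-0.16) to -0.03. Over genes of mean 4 or more, called members were fewer because fewer were tested: 6 endothelial, 1 mural, 4 microglial, 9 astrocyte, 4 interferon and 0 glutamatergic genes were higher (limma, adjusted p), and 4 synaptic vesicle genes and 1 potassium channel gene lower. With library weights 18 neuroblast and 15 synaptic vesicle genes were lower, and with only the 6 libraries fitted 11 potassium channel genes. With the length trend removed 5 neuroblast and 5 G2 and M phase genes were lower. Without 1 library, 7 to 14 neuroblast genes, 3 to 7 potassium channel genes and 3 to 11 G2 and M phase genes were lower. Library weights also gave 5 higher neuropeptide, 6 higher guidance, 4 higher striatal and 3 higher precursor genes, and 11 lower regional factors, 8 lower cholesterol and 4 lower stem cell genes. The cause of the changes with library weights, the number of libraries fitted and the length trend was not tested. At a value of at least 2 in all 3 libraries, 4 genes were at the floor in NB2 only and 0 in Other only.

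Of 225 genes followed through the alternatives, 128 of the 189 called genes were called in every alternative that could test them, 61 lost the call in at least 1, 22 uncalled genes gained one, and none reversed. Losses were most frequent without Other replicate 3 (42 genes). The replicate numbers do not pair the libraries: the correlations of deviations of same-numbered Other and NB2 libraries were -0.0994, -0.0147 and -0.118. With the replicate block 3553 genes were higher and 3655 lower, 3 named calls were lost and 3 gained. Depth limits what can be said of low genes, above all in Other replicate 3.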

Other observations

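Neuropeptide genes are given as values, since their counts of calls were not above the shares over all genes (22.2% higher and 23% lower). Of 15 neuropeptide and peptide-processing genes found, 12 were tested, with 2 higher and 1 lower by limma at an adjusted p under 0.05. The carboxypeptidase Cpe, which trims peptide precursors, read 9.93, 9.72 and 9.89 in NB2 replicates 1 to 3 and 10.47, 10.38 and 10.55 in Other (0.62 ± 0.16; adjusted p = 0.00332), with no overlap. Scg5, a chaperone of the convertase that cuts these precursors, was higher by 0.51 ± 0.14 (0.0045), and its call ended without Other replicate 3 (0.0517) with the length trend removed (0.374) and with only the 6 libraries fitted (0.0508). The activity-dependent precursor Vgf was lower (-2.35 ± 0.93; 0.042), and that call ended without any library but Other replicate 1, at 0.0646 to 0.158, and with the length trend removed (0.0544).

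Of 5 sex-linked transcripts, all tested, only the Y-linked helicase Ddx3y was lower in Other by limma and none was higher (0 also at an unadjusted p under 0.05), at 5.53, 5.12 and 5.28 in NB2 and 5.32, 3.56 and 4.02 in Other (-1.01 ± 0.40; limma adjusted p = 0.0412), and its groups overlapped. The call ended without any library but Other replicate 1, at 0.0592 to 0.234, with the length trend removed (0.236), with only the 6 libraries fitted (0.0574) and with no trend and no robust setting (0.0541). In contrast, 4 of the 5 were lower without Other replicate 1, and 4 with library weights. Whether the libraries held equal numbers of male and female mice was not tested.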
